A study of Homo sapiens with 8 samples.

Results

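The transcriptional response to a γ-secretase inhibitor (GSI) was followed in CUTLL1 cells that carried an empty lentiviral vector (Empty-V), in 4 of the 8 arrays of the series. These are the 2 arrays of Empty-V cells cultured for 2 days with 1 µM GSI and the 2 arrays of Empty-V cells cultured with DMSO, the solvent control, and they were chosen by the vector and treatment named in their labels. CUTLL1 is a human T-cell acute lymphoblastic leukemia (T-ALL) line, described in the labels as a T-cell lymphoma line with a t(7;9) rearrangement, with aberrant NOTCH1 activation. The other 4 arrays hold CUTLL1 cells in which the same backbone carries the MIR17HG miRNA cluster, called cluster cells here, under the same GSI and DMSO conditions. Both kinds of cells had been spinfected with lentivirus, which expresses GFP, and sorted by flow cytometry before treatment. All arrays therefore come from a single line after transduction and sorting, at a single dose and time, and no array of untransduced cells was analysed here. Each group holds a set 1 and a set 2 array. The study names them as independent biological experiments, p-values measure the spread between these arrays, and array values below are given as set 1 followed by set 2.

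NOTCH1 is a receptor that γ-secretase cuts inside the membrane after ligand binding or mutation has exposed the cleavage site. The freed intracellular domain enters the nucleus, binds the DNA-binding protein RBPJ together with a Mastermind co-activator, and switches on target genes such as HES1, DTX1, NRARP and MYC. In thymocytes this pathway sets the T-cell fate and sustains early growth, and in T-ALL its constant activity drives anabolic metabolism, so that GSI serves as a switch for NOTCH1-dependent transcription.

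RNA was read on Clarion S arrays as log2 signal for 21448 probe sets, 17709 of which carry the name of 1 gene. Values of the 4 arrays ran between 2.01 and 18.43, with array medians of 5.31 to 5.36, and a group mean below the median of all values (5.32) is called dim here. The deposited values carry no detection call per probe set, so whether dim signal lay above background was not determined, and no fold is given where one group was dim. Levels are compared between arrays only, never between genes. Of 8 defining T-cell genes, all with values between 7.84 and 16.74, 2 rose with GSI (CD2 and CD5) and none fell. B-cell (7), erythroid (7), and stromal and epithelial (10) marker probe sets had no call. Of 9 myeloid markers, CD68 passed, with dim values of 5.31 and 5.01 in GSI cells, against 4.36 and 4.53 in DMSO cells (limma adjusted p = 0.047, and 0.106 in a fit with the set number as a block, called the blocked fit below).

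GSI changed 1601 probe sets in Empty-V cells, 7.46% of all those tested, at a limma adjusted p below 0.05 in a fit of all 8 arrays. Of these, 816 were higher (3.8%) and 785 lower (3.66%), with median changes of 0.97 and -0.94 on the log2 scale, whereas the median over all probe sets was 0.01. Rises of at least 2 on the log2 scale numbered 64 and falls of that size 44. The GSI and DMSO arrays did not overlap for any called probe set, but this held for 50.1% of all probe sets. The blocked fit called 825 probe sets (3.85%), all of them among the 1601. Leaving out GSI set 1, GSI set 2, DMSO set 1 or DMSO set 2 left 1015, 553, 597 or 514 calls, and 384 of the 1601 passed whichever of the 8 arrays was left out. The 20 largest falls passed in each of these fits, and so did 19 of the 20 largest rises.

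**Figure D1:**
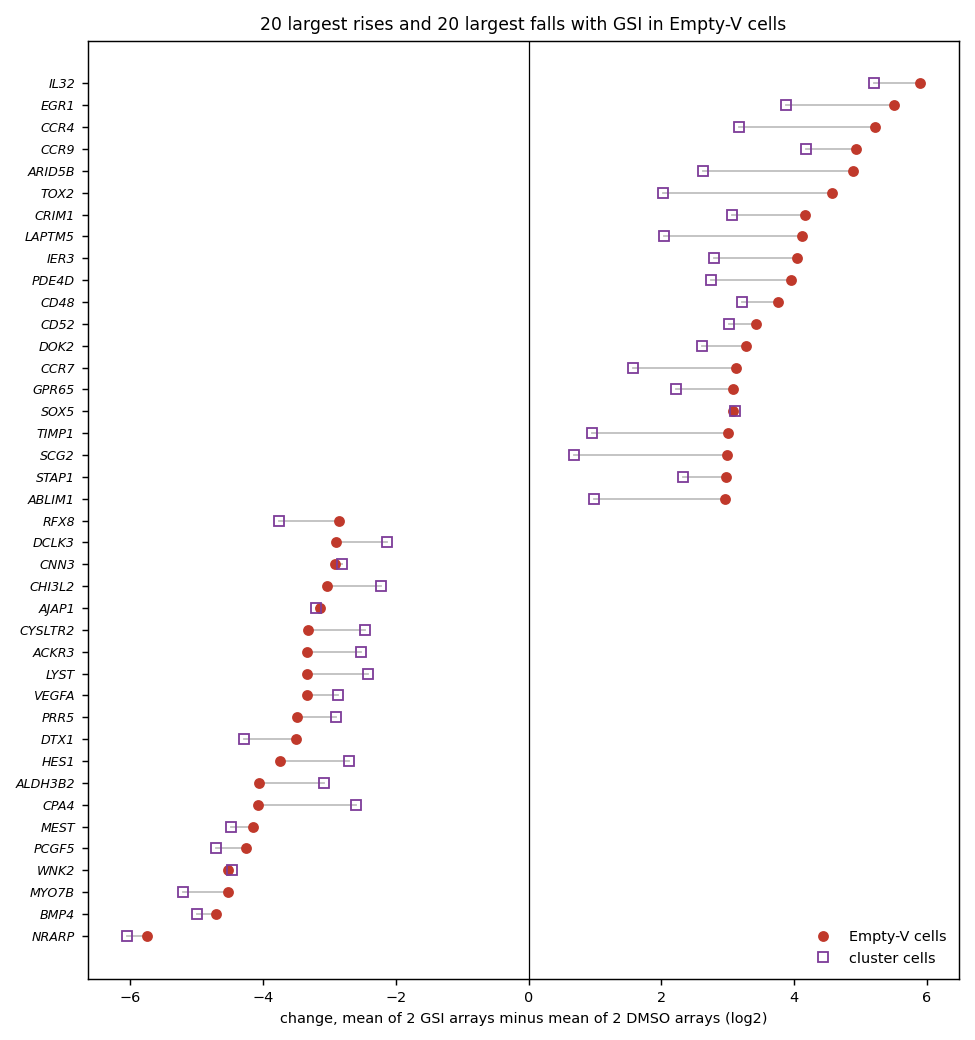
The 20 largest rises and 20 largest falls with GSI among named genes, as mean of the GSI arrays minus mean of the DMSO arrays (log2, horizontal axis), with circles for Empty-V cells and squares for cluster cells, 2 arrays a group. In Empty-V cells the rises run from 2.96 to 5.89 and the falls from 2.86 to 5.75, and IL32 and NRARP stand at the ends.

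The deepest fall of any named gene was in NRARP (chr9:137299631-137302271 on GRCh38), the ankyrin-repeat protein that binds the NOTCH1 complex and limits it. Its signal was 4.26 and 4.54 in GSI cells, against 9.98 and 10.33 in DMSO cells. The change of -5.75 ± 0.20 (SE, n = 2 arrays a group) had a limma adjusted p of 3.27e-06, with dim GSI arrays. DTX1, a Deltex ubiquitin ligase and feedback regulator, had 9.27 and 8.43 in GSI cells, against 12.33 and 12.38 in DMSO cells, 11.4-fold lower (limma adjusted p = 0.000215). Both genes fell in either set.

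Among 17 feedback and pathway regulators 2 fell, 1 rose and 14 did not pass, and their median change was 0.10, against 0.01 over all probe sets. RBPJ itself read 8.84 and 9.18 with GSI, against 9.01 and 8.88 with DMSO, and these ranges overlap. MAML3, a Mastermind co-activator, was the gene that rose, with 5.76 and 5.55 in GSI cells, against 4.33 and 4.85 in DMSO cells (limma adjusted p = 0.0185). Its call was lost without GSI set 1, GSI set 2 or DMSO set 1. MAML1 (0.47), FBXW7 (0.38), which marks the NOTCH1 intracellular domain for degradation, and NUMB (-0.01) did not pass.

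HES and HEY genes encode basic helix-loop-helix repressors and include the classical direct targets of NOTCH. Of 9 measured, 4 fell and 1 rose, with a median of -0.58 (set 1, -0.64, and set 2, -0.53). HES1 (chr3:194136148-194138732) had 5.89 and 6.15 in GSI cells, against 9.85 and 9.68 in DMSO cells, a change of -3.75 ± 0.19 or 13.4-fold (limma adjusted p = 8.35e-06). HES4 (chr1:998964-1000097) had 9.54 and 8.37 in GSI cells, against 11.13 and 11.15 in DMSO cells, a change of -2.19 ± 0.32 (limma adjusted p = 0.00433), and its GSI arrays lay further apart than its DMSO arrays. HEY1 had 4.51 and 4.09 in GSI cells, against 5.85 and 6.18 in DMSO cells (change -1.71, limma adjusted p = 0.00369), so that its signal went below the array median. HEY2 (change -1.04) was dim in both groups, and so was HES7, the gene that rose, by 0.74, and it lost its call in the blocked fit (limma adjusted p = 0.103) and in each of the 8 fits without an array. HEY2 lost its call without GSI set 2, DMSO set 1 or DMSO set 2 (limma adjusted p = 0.107, 0.0604 and 0.111). HES5 read 4.00 and 4.09 with GSI, against 4.64 and 4.62 with DMSO, and did not pass (limma adjusted p = 0.0582).

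The promoters of the 2 HES genes with signal well above the array median in DMSO cells are shown because both hold the core letters TGGGAA of the sequence bound by RBPJ, given in capitals. Windows are RefSeq promoters on GRCh38.p14, from 250 bases before to 50 after the annotated start, read on the gene's strand. Matches were sought on both strands, and their positions count from the start at 0.
HES1, chr3:194135898-194136197 (+ strand, matches at -84 and -70): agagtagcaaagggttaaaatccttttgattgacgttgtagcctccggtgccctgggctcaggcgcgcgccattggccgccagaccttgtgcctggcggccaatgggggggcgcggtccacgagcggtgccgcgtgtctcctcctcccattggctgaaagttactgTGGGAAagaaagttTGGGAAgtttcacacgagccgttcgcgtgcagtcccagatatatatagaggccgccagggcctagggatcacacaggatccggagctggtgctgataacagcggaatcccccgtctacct
HES4, chr1:1000048-1000347 (- strand, match at -76): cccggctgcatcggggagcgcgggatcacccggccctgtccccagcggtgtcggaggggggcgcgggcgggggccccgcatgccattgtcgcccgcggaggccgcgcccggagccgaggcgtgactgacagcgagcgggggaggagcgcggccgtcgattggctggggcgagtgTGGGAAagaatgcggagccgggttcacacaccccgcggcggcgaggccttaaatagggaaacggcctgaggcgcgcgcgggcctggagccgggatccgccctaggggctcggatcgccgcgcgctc
In HES1 the core occurs at a pair of neighbouring places on the same strand. Of the 8 HES and HEY genes with a window, 5 held the core, as did 22.5% of the 14250 promoters of all named genes. The share was 20.2% among the 574 called lower and 18.2% among the 560 called higher, and NRARP, the gene with the deepest fall, had no match within its window. A match is a description of letters and not a measured binding site.

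Of 11 receptors, ligands and fringes, NOTCH3 alone passed. NOTCH3, a receptor that is itself a target of NOTCH1 in T-ALL, had 8.10 and 7.72 in GSI cells, against 9.85 and 10.39 in DMSO cells, 4.63-fold lower (change -2.21 ± 0.24, limma adjusted p = 0.000772). NOTCH1 RNA read 8.99 and 7.76 with GSI, against 9.13 and 9.20 with DMSO, with nearly all of its difference in set 2 (limma adjusted p = 0.187, and 0.698 without GSI set 2). The other 9 measured receptors, ligands and fringe glycosyltransferases did not pass, among them JAG2 at 0.21, NOTCH2 at -0.15 and MFNG at -0.29. None of the 5 measured subunits of γ-secretase, the target of the drug, passed, and their changes lay between -0.57 (PSENEN) and 0.56 (APH1B). In a fit without dim probe sets, and in a robust fit with intensity trend, 1 subunit was called higher and 1 lower.

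**Figure D2:**
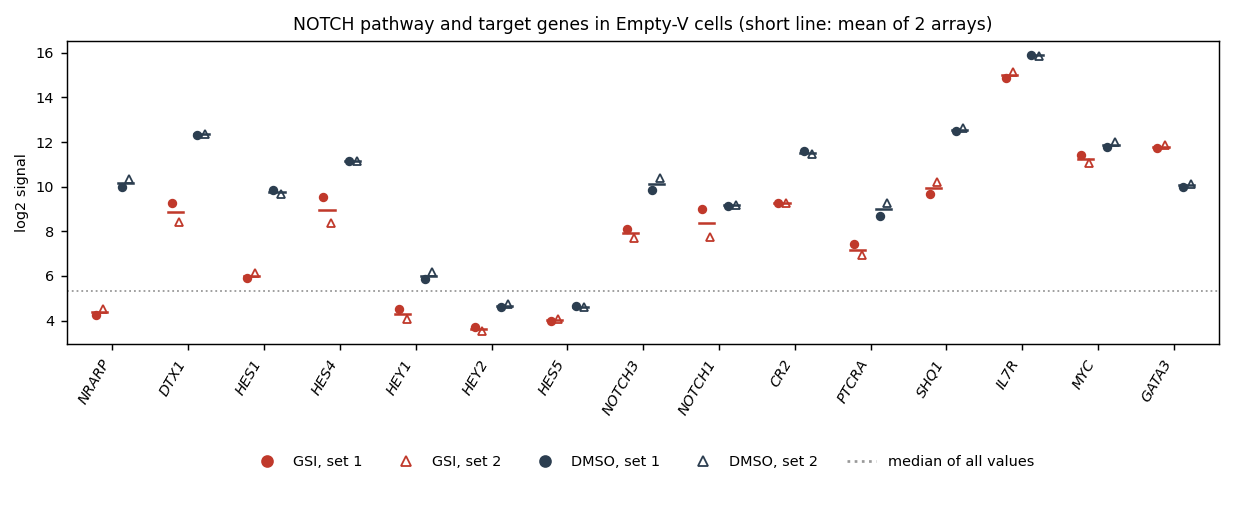
Log2 signal of 15 NOTCH pathway and target genes in the GSI arrays (red, left of each pair) and the DMSO arrays (dark) of Empty-V cells. Circles are set 1, triangles set 2, short lines group means and the dotted line the median of all values (5.32). NRARP, HEY1, HEY2 and HES5 lie below the dotted line with GSI, while MYC and IL7R stay far above it in all 4 arrays.

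Of 24 further probe sets for 23 genes described as NOTCH1 targets in T cells, 10 fell and 3 rose, against 3.66% lower and 3.8% higher of all probe sets. That list, like all gene lists described here, was drawn up with earlier results of these arrays known, so its count is not independent of them. Its 10 falls and 3 rises were the same in number in the blocked fit. Over all NOTCH lists (66 probe sets), 17 fell and 5 rose, so that only the falls were far above the share of all probe sets. In the blocked fit 17 fell and 4 rose. BMP4, a secreted morphogen, had 9.88 and 10.28 in GSI cells, against 14.95 and 14.64 in DMSO cells (26.3-fold lower). PCGF5, a subunit of Polycomb repressive complexes, had 9.48 and 9.56 in GSI cells, against 13.77 and 13.79 in DMSO cells (19.2-fold lower), with differences of at most 0.08 between arrays of a group. WNK2, a kinase, was 23.1-fold lower, and MYO7B, an unconventional myosin, fell by 4.53 on the log2 scale to dim signal. For all 4 the limma adjusted p was 6.09e-06 or less.

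The other falls among these targets were smaller in size. PTCRA encodes the pre-T-cell receptor α chain, which pairs with TCRβ before TCRα is made. It had 7.42 and 6.93 in GSI cells, against 8.69 and 9.27 in DMSO cells (change -1.80 ± 0.24, limma adjusted p = 0.00258). CR2, the complement receptor CD21, had 9.29 and 9.25 in GSI cells, against 11.61 and 11.45 in DMSO cells (change -2.26 ± 0.16). SHQ1, an assembly factor for box H/ACA ribonucleoproteins, had 9.66 and 10.20 in GSI cells, against 12.50 and 12.62 in DMSO cells (change -2.63 ± 0.20). IL7R, the receptor that carries the survival signal of interleukin-7, read 14.87 and 15.16 with GSI, against 15.92 and 15.85 with DMSO (change -0.87, limma adjusted p = 0.0202). Its call was lost without DMSO set 1 and also without DMSO set 2.

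MYC, the transcription factor through which NOTCH1 is held to drive T-ALL growth, read 11.44 and 11.07 in GSI cells, against 11.78 and 11.99 in DMSO cells. Its arrays did not overlap and both sets went down, but the change of -0.63 ± 0.19 missed the threshold (limma adjusted p = 0.079, and 0.160 in the blocked fit). The 3 genes that rose were CCR7, the lymph-node homing receptor, PTPRC (CD45), the tyrosine phosphatase on all leukocytes, and GATA3, a master factor of T-cell fate. GATA3 had 11.73 and 11.86 in GSI cells, against 9.99 and 10.13 in DMSO cells, 3.33-fold higher (limma adjusted p = 0.000395).

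**Figure D3:**
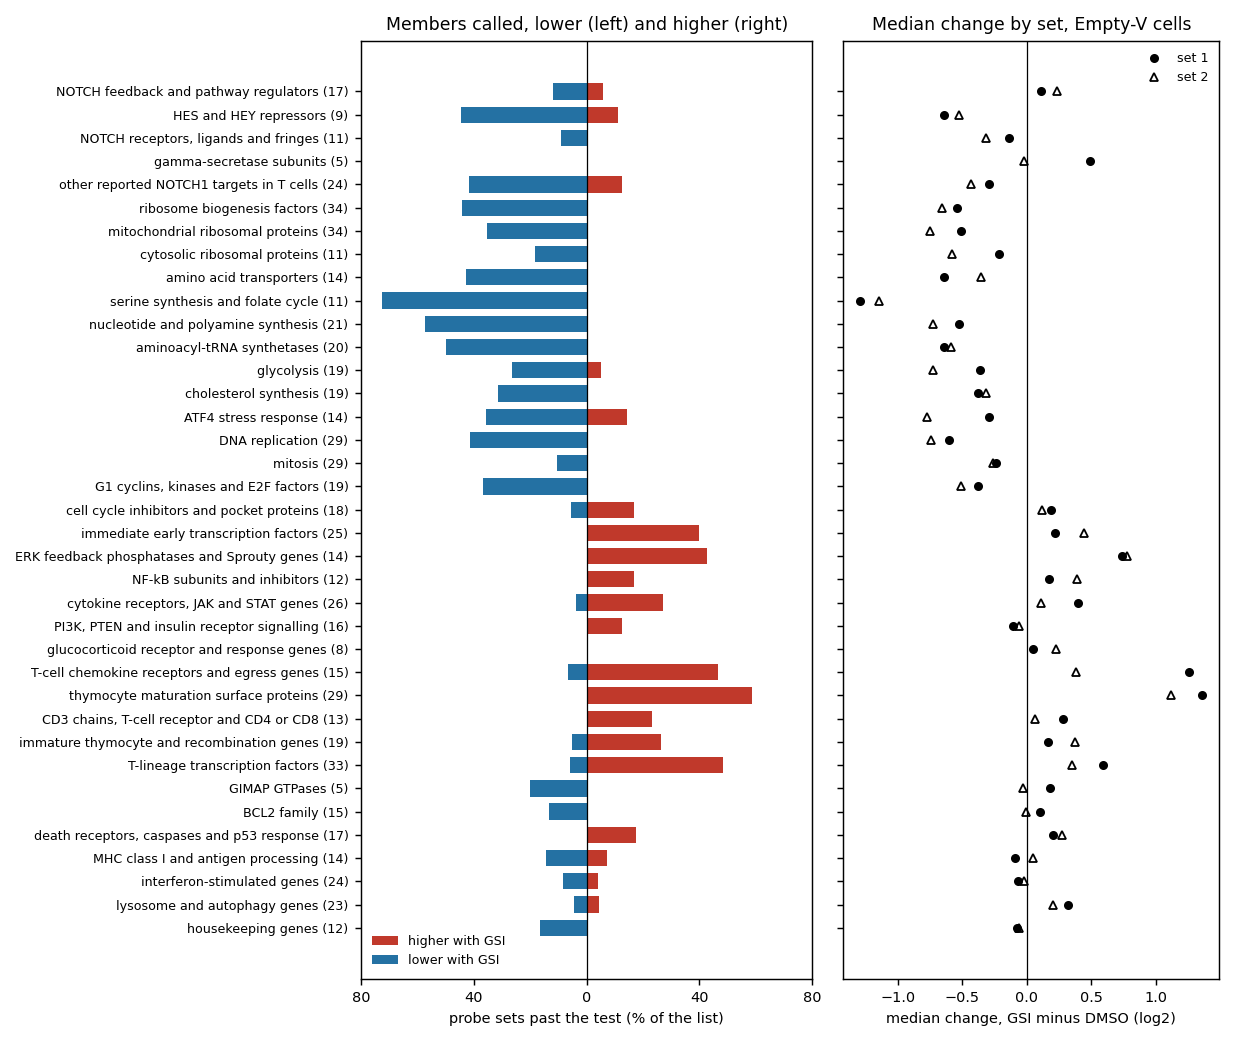
Left, share of the probe sets of each gene list called lower (blue, left) or higher (red, right) with GSI in Empty-V cells, with the number of probe sets in brackets. Right, the median change of each list (GSI minus DMSO, log2) in set 1 (circles) and set 2 (triangles), which is negative in both sets for all lists between ribosome biogenesis factors and G1 genes and above 1 in both for thymocyte maturation surface proteins.

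Growth and metabolism genes had far more falls than rises. Over 10 lists of growth and metabolism with 197 probe sets, 81 fell and 3 rose with GSI, against 3.66% and 3.8% of all probe sets, and their median change was -0.60 (set 1, -0.50, and set 2, -0.68). In the blocked fit 48 fell, and 56, 32, 42 or 28 were called without GSI set 1, GSI set 2, DMSO set 1 or DMSO set 2. Only 25 passed whichever of the 8 arrays was left out. These lists too were drawn up with earlier results of the arrays known, so the counts are a description only.

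Serine synthesis and the folate cycle, which supply carbon units for nucleotides, had the lowest median of these lists, -1.13, and 8 of 11 probe sets fell, also in the blocked fit. PHGDH, the enzyme that opens the serine pathway, had 11.71 and 11.26 in GSI cells, against 13.27 and 13.48 in DMSO cells (3.71-fold lower, limma adjusted p = 0.000714). PSAT1, the next enzyme, had 13.23 and 13.02 in GSI cells, against 15.00 and 14.88 in DMSO cells (3.52-fold lower, limma adjusted p = 0.000234). PSPH, SHMT2, MTHFD2, MTHFD1L, MTHFD1 and AHCY fell as well, by 1.01 to 1.52 on the log2 scale. SHMT2, MTHFD1 and AHCY each lost the call without 1 DMSO array (highest limma adjusted p = 0.055, 0.0609 and 0.0609).

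Amino acid transporters fell in 6 of 14 probe sets, and all 6 also passed in the blocked fit. SLC7A11, the cystine importer, had 11.10 and 11.41 in GSI cells, against 13.36 and 13.15 in DMSO cells, 4.00-fold lower (limma adjusted p = 0.000303). SLC7A5 and SLC3A2, the light and heavy chains of the large neutral amino acid transporter, fell by 1.05 and 1.21 on the log2 scale, and the glutamine importer SLC1A5 fell by 1.16. Of the ATF4 amino acid response 5 of 14 probe sets fell, among them ATF4 (-1.11), TRIB3 (-1.36) and CHAC1, a glutathione-degrading enzyme, with 6.02 and 5.42 in GSI cells, against 7.57 and 7.90 in DMSO cells. DDIT4 and XBP1 rose there, by 0.85 and 0.75, and neither passed in the blocked fit (limma adjusted p = 0.0504 and 0.0787). Without GSI set 2 the list had 2 calls, and without DMSO set 2 it had 3, while GSI set 1 and DMSO set 1 each left 4.

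Of nucleotide and polyamine synthesis 12 of 21 probe sets fell (median -0.69), led by PAICS, a purine enzyme, with 13.99 and 14.05 in GSI cells, against 15.29 and 15.28 in DMSO cells (change -1.26 ± 0.15, limma adjusted p = 0.00134). Spermidine synthase SRM, CTP synthase CTPS1 and CAD, which opens pyrimidine synthesis, fell by 1.00, 0.97 and 1.09, CAD with a limma adjusted p of 0.0623 in the blocked fit. In the blocked fit 5 passed, and 5, 3, 6 or 3 without GSI set 1, GSI set 2, DMSO set 1 or DMSO set 2. Aminoacyl-tRNA synthetases fell in 10 of 20 (median -0.62), of which 3 passed in the blocked fit and 2, 3, 3 or 2 without those arrays in turn. Glycolysis had 5 falls among 19, including LDHA, ENO1 and TPI1, and the opposite change in SLC2A3, a glucose transporter, with 10.91 and 10.55 in GSI cells, against 8.64 and 8.91 in DMSO cells (limma adjusted p = 0.000437). It had 3 calls without GSI set 2 and 3 without DMSO set 2. Cholesterol synthesis had 6 falls among 19, down to 4, 3, 2 or 1 calls without GSI set 1, GSI set 2, DMSO set 1 or DMSO set 2.

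Ribosome biogenesis factors, which process ribosomal RNA and assemble the subunits in the nucleolus, fell in 15 of 34 probe sets and rose in none. All 34 had a change below 0 (median -0.59). NOLC1, a nucleolar chaperone, had 12.09 and 12.01 in GSI cells, against 13.18 and 13.25 in DMSO cells (change -1.17 ± 0.16, limma adjusted p = 0.00315). NPM1, nucleophosmin, had 13.51 and 13.45 in GSI cells, against 14.51 and 14.41 in DMSO cells (change -0.98 ± 0.18, limma adjusted p = 0.0121). In both genes the arrays of a group differed by at most 0.10. FBL, NCL and NOP58 fell by 0.76, 0.65 and 0.64, and lost their calls in the blocked fit. That fit called 6 of the 34, and 9, 2, 4 or 3 were called without GSI set 1, GSI set 2, DMSO set 1 or DMSO set 2.

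Promoters of this list were read for CACGTG, the E-box letters bound by MYC and related factors, with matches on both strands coinciding because the letters are palindromic. The match was found in 13 of the 30 genes with a window (43.3%), against 8.69% of all 14250 promoters and 12.5% of those called lower. Its share varied between other lists. It was 33.3% of 18 windows for lysosome and autophagy genes, a list with 1 rise and 1 fall. For nucleotide and polyamine synthesis it was 21.1% of 19 windows, and for mitochondrial ribosomal proteins, with 12 falls, 6.67% of 30. UTP4, a subunit of the complex that processes the small-subunit ribosomal RNA, is shown as an example with the match near its start, the E-box in capitals.
UTP4, chr16:69132399-69132698 (+ strand, match at -16): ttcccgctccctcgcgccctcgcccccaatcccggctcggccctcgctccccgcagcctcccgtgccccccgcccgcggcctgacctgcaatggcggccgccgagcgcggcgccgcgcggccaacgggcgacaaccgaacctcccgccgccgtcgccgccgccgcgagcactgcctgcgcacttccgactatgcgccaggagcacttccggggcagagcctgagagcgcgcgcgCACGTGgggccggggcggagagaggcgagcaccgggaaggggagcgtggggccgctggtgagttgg
UTP4 read 13.46 and 13.49 in GSI cells, against 14.26 and 14.28 in DMSO cells (change -0.79 ± 0.15, limma adjusted p = 0.0143, and 0.0917 without DMSO set 2). MRTO4, NOP14, PES1, FBL and IMP4 were the other genes that both held the match and fell, of which MRTO4 alone passed in the blocked fit. The remaining 7 holders of the match did not pass, and whether the match goes with a fall was not tested.

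Mitochondrial ribosomal proteins fell in 12 of 34 probe sets (median -0.64). MRPL17 had 9.46 and 9.60 in GSI cells, against 10.83 and 10.90 in DMSO cells (change -1.33 ± 0.16, limma adjusted p = 0.00121), and MRPL3 and MRPL13 fell by 1.10 and 1.23. Their count was 6 in the blocked fit and 8, 3, 5 or 3 without GSI set 1, GSI set 2, DMSO set 1 or DMSO set 2. Of 11 cytosolic ribosomal proteins RPS14 and RPS19 fell, neither of them in the blocked fit (limma adjusted p = 0.0517 and 0.0802). All 11 were below 0, with a median of -0.22 in set 1 and -0.58 in set 2.

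**Figure D4:**
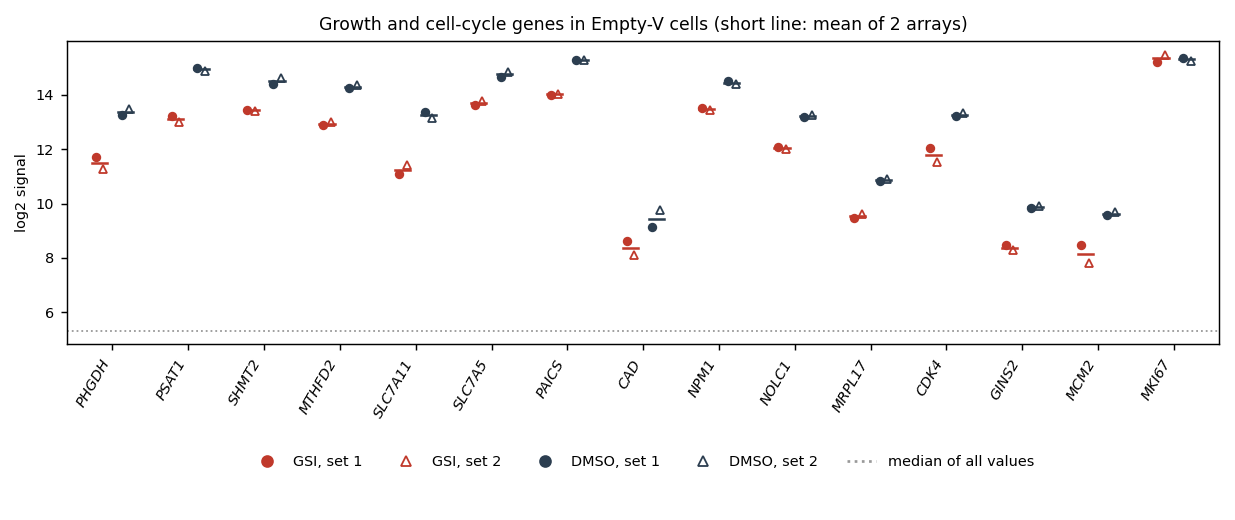
Log2 signal of 15 growth and cell-cycle genes in the GSI arrays (red, left of each pair) and DMSO arrays (dark) of Empty-V cells, with set 1 as circles, set 2 as triangles, group means as short lines and the median of all values (5.32) dotted. The GSI arrays lie below the DMSO arrays for all genes shown except MKI67, which reads 15.22 and 15.49 with GSI and 15.35 and 15.27 with DMSO.

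Of the cell-cycle lists, that of DNA replication held the most falls. DNA replication factors fell in 12 of 29 probe sets, all 29 changes were below 0 and the median was -0.67. In the fit without dim probe sets 22 fell, and in the robust fit with intensity trend 23 fell. The blocked fit called 7, and 8, 5, 7 or 3 were called without GSI set 1, GSI set 2, DMSO set 1 or DMSO set 2. GINS2, a subunit of the replicative helicase, had 8.47 and 8.28 in GSI cells, against 9.83 and 9.90 in DMSO cells (change -1.49 ± 0.20, limma adjusted p = 0.00295). MCM2, another helicase subunit, had 8.49 and 7.82 in GSI cells, against 9.57 and 9.68 in DMSO cells (change -1.47 ± 0.24, limma adjusted p = 0.00699). CDT1, CDC6 and MCM5, which license origins, fell by 1.32, 1.00 and 1.07. Of G1 cyclins, kinases and E2F factors 7 of 19 fell, with CDK4 at 12.03 and 11.54 in GSI cells, against 13.22 and 13.32 in DMSO cells (change -1.48 ± 0.19, limma adjusted p = 0.00239), and with E2F1, SKP2, CDC25A, CDK2, E2F5 and TFDP1. CDK4, E2F1 and SKP2 were the 3 that passed in the blocked fit, and without GSI set 1, GSI set 2, DMSO set 1 or DMSO set 2 the list had 1, 1, 2 or 1 calls.

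Mitosis genes had 3 falls among 29 (MYBL2, CDC20 and MAD2L1), none of which passed in the blocked fit, and their median was -0.29. The count depended on the setting, with 7 falls in the fit without dim probe sets. In the robust fit with intensity trend 10 fell and 1 rose. MKI67, the proliferation antigen, read 15.22 and 15.49 in GSI cells, against 15.35 and 15.27 in DMSO cells, and these ranges overlap. Whether the replication and mitosis lists differ in their response was not tested. Among 18 inhibitors and pocket proteins CCNG2, a cyclin of arrested cells, rose 3.88-fold with 12.94 and 13.07 in GSI cells, against 11.09 and 11.01 in DMSO cells, and RBL2 (p130) and CDKN1B (p27) rose by 0.98 and 0.67, the last with a limma adjusted p of 0.103 in the blocked fit. GADD45A fell by 1.38. Over all cell-cycle lists (95 probe sets) 23 fell and 3 rose, against 3.66% lower and 3.8% higher of all probe sets, so that the rises were near the overall share. In the blocked fit 11 fell and 2 rose, and 13, 8, 11 or 7 were called without GSI set 1, GSI set 2, DMSO set 1 or DMSO set 2.

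Early response genes had rises and no falls in the fit that gave the 1601 calls. Over all lists of signalling, from immediate early factors to glucocorticoid response genes (100 probe sets), 27 rose and 1 fell. Of all probe sets 3.8% were higher and 3.66% lower, so the signalling falls were not above the overall share. In the blocked fit 19 rose and 1 fell. Immediate early factors, which are transcribed within minutes of a signal without new protein synthesis, rose in 10 of 25 probe sets and fell in none, although their median was only 0.30 and 12 of the 25 were dim in both groups. In the fit without dim probe sets 7 rose and 1 fell, and in the robust fit with intensity trend 10 rose and 1 fell. EGR1 (chr5:138465479-138469303), a zinc-finger factor induced by ERK signalling, had the second-largest rise of all named genes. It had 12.52 and 12.12 in GSI cells, against 6.52 and 7.10 in DMSO cells, a change of 5.51 ± 0.24 or 45.6-fold (limma adjusted p = 4.17e-06). IER3 had 12.65 and 12.66 in GSI cells, against 8.38 and 8.85 in DMSO cells (16.4-fold higher). CD69, an early activation antigen that also retains T cells in tissue, and ZFP36, which destabilises cytokine messages, rose by 2.28 and 2.13.

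The EGR1 promoter is shown because this gene carries the CArG box, the element bound by serum response factor, which occurs in 1.24% of all promoters and in 2 of the 17 windows of this list. Both matches are in capitals.
EGR1, chr5:138465229-138465528 (+ strand, matches at -105 and -83): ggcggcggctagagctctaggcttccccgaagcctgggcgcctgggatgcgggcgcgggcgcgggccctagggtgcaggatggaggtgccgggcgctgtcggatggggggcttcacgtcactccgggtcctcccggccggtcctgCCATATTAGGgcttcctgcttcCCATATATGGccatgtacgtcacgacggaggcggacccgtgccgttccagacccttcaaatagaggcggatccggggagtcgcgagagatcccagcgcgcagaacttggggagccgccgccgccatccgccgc
Not all of the family moved. EGR3, NR4A2 and NR4A3 rose by 1.66, 0.98 and 1.19 but were dim in both groups, NR4A2 with a limma adjusted p of 0.0588 in the blocked fit, NR4A1 rose by 1.24, and the other 15 probe sets did not pass. The count was 8 in the blocked fit and 6, 7, 6 or 6 without GSI set 1, GSI set 2, DMSO set 1 or DMSO set 2.

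Genes that feed back on ERK rose in 6 of 14 probe sets, with a median of 0.68 (set 1, 0.73, and set 2, 0.78), and none fell. DUSP6, the phosphatase that inactivates ERK, had 7.31 and 7.62 in GSI cells, against 5.26 and 4.69 in DMSO cells, a change of 2.49 ± 0.22 from dim signal in DMSO cells (limma adjusted p = 0.000263). DUSP10, a phosphatase of p38 and JNK, had 9.61 and 9.42 in GSI cells, against 8.23 and 7.75 in DMSO cells. SPRED2 rose by 1.03, and SPRY1, DUSP4 and SPRY4 rose while dim in both groups. Of these 6, SPRY4 alone lost its call in the blocked fit (limma adjusted p = 0.0566). Without GSI set 2 or without DMSO set 2 there were 4 calls.

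Among 26 cytokine receptor, JAK and STAT probe sets 7 rose and 1 fell, the fall being that of IL7R. STAT3 had 9.24 and 9.02 in GSI cells, against 7.27 and 7.38 in DMSO cells (change 1.80 ± 0.16, limma adjusted p = 0.000242), and JAK1 had 12.22 and 12.39 in GSI cells, against 11.19 and 11.00 in DMSO cells (change 1.21 ± 0.17). STAT5A, STAT5B, IL2RB, IL4R and SOCS1 rose by 0.73 to 1.03. In the blocked fit only STAT3, JAK1 and STAT5A remained higher, and IL7R remained lower. The list had 4, 3, 4 or 2 calls without GSI set 1, GSI set 2, DMSO set 1 or DMSO set 2. In the PI3K list SGK1, a kinase downstream of PI3K, rose 4.77-fold and PIK3CG, a catalytic subunit of leukocytes, rose by 1.58, whereas the other 14 did not pass. Of 12 NF-κB genes TNFAIP3, an inhibitor of that pathway, and RELB rose by 0.99 and 0.70, and RELB was dim. They left 1 call in the blocked fit, 1 without GSI set 1, GSI set 2 or DMSO set 1 and 0 without DMSO set 2. None of 8 glucocorticoid response genes passed.

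Over the lists of T-cell differentiation, 48 of 114 probe sets rose and 5 fell, with a median change of 0.54, against 3.8% higher and 3.66% lower of all probe sets, so that the falls were near the overall share. Of these, 41 rose and 3 fell in the blocked fit. The lists were drawn up with earlier results of these arrays known, so the counts are not independent of them. Genes of thymocyte maturation, most of them surface proteins, rose in 17 of 29 probe sets and fell in none, with a median of 1.22 (set 1, 1.36, and set 2, 1.12). IL32 (chr16:3065403-3069530), a cytokine of activated T and NK cells and not a surface protein, had 13.13 and 13.12 in GSI cells, against 7.41 and 7.05 in DMSO cells. Its change of 5.89 ± 0.23, or 59.5-fold (limma adjusted p = 3.27e-06), was the largest rise among named genes.

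CD48, a ligand of the CD2 family, had 9.91 and 9.92 in GSI cells, against 6.29 and 6.02 in DMSO cells (13.5-fold higher). CD52, a small glycoprotein of mature lymphocytes, had 12.42 and 11.96 in GSI cells, against 8.87 and 8.67 in DMSO cells (10.7-fold higher). CD2, the adhesion receptor of T and NK cells, had 11.00 and 10.69 in GSI cells, against 7.84 and 7.95 in DMSO cells (change 2.95 ± 0.20, limma adjusted p = 4.55e-05). PTPRC had 13.90 and 14.18 in GSI cells, against 11.61 and 11.41 in DMSO cells (5.78-fold higher). CD53, CD84, CD38, CD96, CD28, CD5, CD27 and the adaptor LAT rose by 1.04 to 2.14. CD44 (change 1.55) and THEMIS (0.92) rose too, but not in the blocked fit (limma adjusted p = 0.0546 and 0.0809). The count was 14, 14, 13 or 15 without GSI set 1, GSI set 2, DMSO set 1 or DMSO set 2.

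Chemokine receptors and other genes of thymocyte traffic rose in 7 of 15 probe sets and fell in 1, and both counts were the same in the blocked fit. Their median was 0.875, but it differed between the sets (set 1, 1.26, and set 2, 0.38). CCR4, a receptor of skin-homing and helper T cells, had 8.20 and 8.32 in GSI cells, against 2.96 and 3.13 in DMSO cells, a change of 5.21 ± 0.19 against dim DMSO signal (limma adjusted p = 3.27e-06). CCR9, which guides thymocytes and gut-homing T cells, had 13.06 and 13.02 in GSI cells, against 7.81 and 8.41 in DMSO cells, 30.5-fold higher (limma adjusted p = 6.09e-06). CCR7 had 9.32 and 9.40 in GSI cells, against 6.27 and 6.20 in DMSO cells (change 3.12 ± 0.16). S1PR1, the receptor by which mature thymocytes leave the thymus, rose by 1.76, CXCR6 by 2.95 and KLF3 by 1.05. CCR8 went down, with 3.43 and 3.65 in GSI cells, against 5.16 and 5.68 in DMSO cells (change -1.88 ± 0.21, limma adjusted p = 0.00087).

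**Figure D5:**
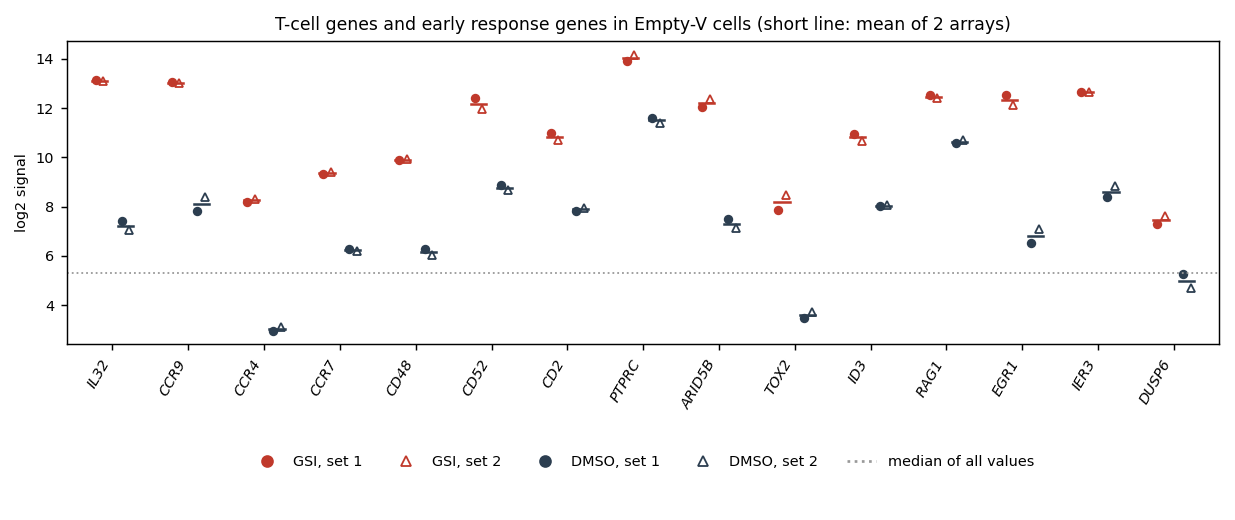
Log2 signal of 12 T-cell genes and of the early response genes EGR1, IER3 and DUSP6 in the GSI arrays (red, left of each pair) and DMSO arrays (dark) of Empty-V cells, with set 1 as circles, set 2 as triangles, group means as short lines and the median of all values (5.32) dotted. In all 15 both GSI arrays lie above both DMSO arrays, and the DMSO arrays of CCR4, TOX2 and DUSP6 lie below the dotted line.

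T-lineage transcription factors rose in 16 of 33 probe sets and fell in 2, with a median of 0.655 (set 1, 0.59, and set 2, 0.35). ARID5B, an AT-rich interaction factor, had 12.03 and 12.39 in GSI cells, against 7.51 and 7.12 in DMSO cells, 29.8-fold higher (limma adjusted p = 3.27e-06). TOX2 had 7.87 and 8.47 in GSI cells, against 3.47 and 3.72 in DMSO cells, a change of 4.57 ± 0.25 against dim DMSO signal. Its paralogue TOX, a factor of CD4 lineage development, had 15.85 and 16.02 in GSI cells, against 13.96 and 14.05 in DMSO cells (change 1.93 ± 0.16). ID3, an inhibitor of E proteins induced by T-cell receptor signals, had 10.97 and 10.68 in GSI cells, against 8.03 and 8.06 in DMSO cells (6.87-fold higher). BACH2, a repressor of effector differentiation, had 7.49 and 8.57 in GSI cells, against 5.11 and 5.09 in DMSO cells, with GSI arrays 1.08 apart. IKZF3, SOX4, RUNX1, TCF12, SATB1 and IKZF2 rose by 0.94 to 1.85, and ID1, which was dim, and BCL11A fell by 1.38 and 0.97, BCL11A with a limma adjusted p of 0.0627 in the blocked fit. The list had 13 rises and 1 fall in the blocked fit and 15, 11, 11 or 10 calls without GSI set 1, GSI set 2, DMSO set 1 or DMSO set 2.

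Of 19 immature thymocyte and recombination probe sets 5 rose, and PTCRA was the only fall. RAG1, the recombinase that cuts receptor genes, had 12.54 and 12.41 in GSI cells, against 10.57 and 10.71 in DMSO cells (3.57-fold higher, limma adjusted p = 0.000242). DNTT, the polymerase that adds bases at receptor junctions, rose by 1.66, CD1C by 1.42 and CD1A by 0.91, the last not in the blocked fit (limma adjusted p = 0.073). KIT, a stem-cell factor receptor, rose by 0.83 while dim and did not pass in the blocked fit (limma adjusted p = 0.078). CD3 chains and co-receptors did not pass, with CD3E at 16.73 and 16.74 in GSI cells, against 16.32 and 16.26 in DMSO cells (limma adjusted p = 0.132). In that list the adaptor LCP2 and the phosphatases UBASH3A and PTPN22, which act below the receptor, rose by 1.88, 1.63 and 0.98.

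Cell death lists had 3 rises and 2 falls among 32 probe sets, and lists of antigen presentation, interferon response and lysosome had 3 rises and 5 falls among 61, against 7.46% called over all probe sets. The death calls were 3, 4, 3 or 2 and the other calls 6, 2, 3 or 2 without GSI set 1, GSI set 2, DMSO set 1 or DMSO set 2. In the BCL2 family PMAIP1 (NOXA), a BH3-only protein, fell by 1.48 and BID by 0.93, BID not without DMSO set 1 or DMSO set 2 (limma adjusted p = 0.054 and 0.0589), while BCL2A1 and MCL1 did not pass at 0.67 and 0.57. CASP8 rose by 1.29, with TP53INP1, which was dim, and CFLAR, which was called in neither the fit in the blocked fit nor in any of the 8 fits without an array. Of 14 MHC class I probe sets HLA-E rose by 1.12 and PSMB9 and TAP1 fell by 1.00 and 0.87, TAP1 with a limma adjusted p of 0.0519 in the blocked fit. They kept 2 calls without GSI set 1, 1 without GSI set 2 or DMSO set 1 and 0 without DMSO set 2. Of 24 interferon-stimulated probe sets 1 rose (ISG20) and 2 fell (IRF1, by 1.29, and XAF1), with 13 dim, and IRF1 alone passed in the blocked fit. Of 12 housekeeping probe sets TFRC, the transferrin receptor, and HPRT1 fell by 1.62 and 1.18, and the median of that list was -0.04. Of 5 GIMAP GTPases GIMAP2 was lower, but not in the blocked fit (limma adjusted p = 0.0936) or in 7 of the 8 fits without an array. Of 23 lysosome and autophagy probe sets ATG14 was higher and GLA lower, near the overall share, and neither passed without GSI set 2 or DMSO set 1.

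Several of the largest changes lay outside the lists. LAPTM5, a lysosomal protein that promotes degradation of the T-cell receptor, had 10.40 and 10.32 in GSI cells, against 6.04 and 6.43 in DMSO cells (17.4-fold higher). CRIM1, a transmembrane protein that binds BMP ligands, had 10.30 and 10.17 in GSI cells, against 5.94 and 6.21 in DMSO cells (17.9-fold higher), while BMP4 itself fell. PDE4D, a cAMP phosphodiesterase, had 11.03 and 10.99 in GSI cells, against 6.81 and 7.29 in DMSO cells (15.6-fold higher). GPR65, an acid-sensing receptor, SOX5, STAP1, TIMP1 and ABLIM1 rose by 2.96 to 3.08. Of the 20 largest rises, 6 had a dim mean in DMSO cells, not all of them marked here. DOK2, an adaptor that restrains Ras, rose by 3.27, but its DMSO arrays were 3.43 and 4.74 and its call was lost without GSI set 2 (limma adjusted p = 0.0703).

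On the other side, VEGFA, the vascular growth factor, had 10.61 and 10.71 in GSI cells, against 13.96 and 14.05 in DMSO cells, 10.2-fold lower (change -3.35 ± 0.16, limma adjusted p = 6.09e-06). PRR5, a subunit of mTOR complex 2, had 8.07 and 7.67 in GSI cells, against 11.23 and 11.48 in DMSO cells (change -3.49 ± 0.20). LYST, the lysosomal trafficking regulator, fell by 3.34, and the scavenging chemokine receptor ACKR3 and the leukotriene receptor CYSLTR2 fell by 3.33 and 3.32. MEST, CPA4 and ALDH3B2 fell by 4.06 to 4.16 and reached dim mean values with GSI, and CHI3L2, CNN3, AJAP1, DCLK3 and RFX8 fell by 2.86 to 3.14. Of the 20 largest falls, 7 had a dim mean with GSI, not all of them marked here. All 20 of the largest falls and 17 of the 20 largest rises were also called in cluster cells, which have GSI and DMSO arrays of their own. Of all 21448 probe sets, 336 were called there. The change was larger in Empty-V cells for 12 of these falls and 19 of these rises. These genes were chosen by their Empty-V values, so the counts are a description only.

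Set beside cluster cells, the Empty-V response had more calls. GSI changed 336 probe sets in cluster cells, and 264 of these were called in both with the same direction, that is 16.5% of the Empty-V calls and 78.6% of the cluster-cell calls. Probe sets called higher in Empty-V cells had a median change of 0.97 there and 0.46 in cluster cells, and those called lower had -0.94 with the empty vector and -0.30 with the cluster. These probe sets were chosen by the Empty-V values, so the medians are a description only. For NRARP the change was -5.75 with the empty vector and -6.05 with the cluster. BMP4 changed by -4.71 in Empty-V cells and by -5.00 in cluster cells, and IL32 by 5.89 in Empty-V cells and by 5.21 in cluster cells. The growth lists had a median of -0.60 with the empty vector and of -0.23 with the cluster. The cell-cycle lists had -0.41 with the empty vector and -0.04 with the cluster, and neither difference of medians was tested.

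Tested directly, the difference between the responses was called for 6 probe sets, 0.028% of all, and all 6 had the larger value in Empty-V cells. That the differences ran one way did not hold in the robust fit with intensity trend (52 higher and 59 lower) or without dim probe sets (11 higher and 3 lower). SFRP2, a secreted antagonist of WNT ligands, was the only one that also passed in the blocked fit. It had 10.02 and 10.09 in GSI cells, against 7.38 and 7.00 in DMSO cells, with the empty vector, and in cluster cells it had 8.93 and 8.80 with GSI, against 9.34 and 9.19 with DMSO. The responses of 2.86 with the empty vector and -0.40 with the cluster differed by 3.26 (limma adjusted p = 0.0067, and 0.0177 in the blocked fit). ICOS, an inducible co-stimulator of T cells, had 13.42 and 13.29 in GSI cells, against 10.70 and 10.66 in DMSO cells, with the empty vector, and in cluster cells it had 11.72 and 11.78 with GSI, against 11.04 and 11.14 with DMSO. Its difference was 2.02 (limma adjusted p = 0.0296, and 0.124 in the blocked fit). FCMR, the IgM Fc receptor, SCG2, MCC and PRKCH, a protein kinase C, differed by 2.31, 2.30, 2.34 and 2.03, and none of them passed in the blocked fit. Without 1 array, 2 differences were called without Empty-V GSI set 1, 1 without Empty-V DMSO set 1, Empty-V DMSO set 2 or cluster DMSO set 2 and 0 without any other array. For CDK4 (difference -1.27), MCM2 (-1.38), PHGDH (-1.22) and STAT3 (1.51) the responses were larger in Empty-V cells in these means, but no difference passed (limma adjusted p = 0.216, 0.217, 0.217 and 0.0901).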

How the data were processed

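RNA of CUTLL1 cells was hybridized to 8 Clarion S arrays, 2 for each of 4 groups, mapped by their labels. Using Transcriptome Analysis Console, the authors ran SST-RMA to give each gene a log2 value, and deposited these. The supplement and processing notes name hg38, whereas the main text names hg19 for the array. SST-RMA corrects background and brings arrays to a common distribution, so a shift of all RNA would not be seen. The deposited values were used as they are. Gene names are RefSeq symbols found by the Entrez identifier in the probe annotation, or else the symbol of that annotation. Of 21448 probe sets, 17709 have 1 name. Positions and promoters are from RefSeq on GRCh38.p14.

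The model, fitted by limma 3.58.1 (lmFit, eBayes) under R 4.3.3, held a mean for each of the 4 groups and used all 8 arrays (4 residual and 5.29 prior degrees of freedom). Each comparison was adjusted over its 21448 probe sets by Benjamini-Hochberg and called at 0.05. The fit was tested on simulated data with noise drawn independently for each array. That noise leaves out the correlation between same-numbered arrays given below. Tables and figures were made in Python 3.11.15 with pandas 2.3.3, numpy 2.4.6 and matplotlib 3.10.9. The number of arrays limits the precision.

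The members and gene lists (42 lists, 687 of 765 genes with a named probe set) were chosen with earlier results of these data known, so lists are described by counts and medians with no test. Named genes are the 20 largest rises and 20 largest falls among called probe sets without overlap between groups, all members of the NOTCH lists, up to 6 members with the smallest p of each other list, further members whose role is described, and the 6 genes with the smallest p for the difference between vectors.

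Set numbers come from the labels, and the supplement describes independent biological experiments. They were therefore taken to pair the arrays, but only the blocked fit, with 825 calls, uses this pairing. The main fit, which gave the 1601 calls, the SEs and the p-values not marked otherwise, leaves the set out. For the 6 pairs of groups, same-numbered arrays deviated from their means with r of -0.240 to -0.192, a sign that differences between groups varied more than the unblocked fit takes into account. Alternatives were the set as a block, leaving out dim probe sets (mean below 5.32), quantile normalization, median centring, a robust fit with intensity trend, the 4 Empty-V arrays alone, a threshold of 0.1, an absolute log2 change of at least 1, and leaving out each array. The study's quantitative trait analysis spans both vectors and was not used here.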

Additional observations from a re-analysis of the deposited data

Results flagged for a closer look

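The GSI response differed between Empty-V and cluster cells for 6 probe sets, by the test of the difference itself in limma. The difference, Empty-V minus cluster response in log2, was 3.265 for SFRP2, 2.34 for MCC, 2.305 for FCMR, 2.3 for SCG2, 2.025 for PRKCH and 2.015 for ICOS. In 5 of them (SFRP2, ICOS, SCG2, FCMR and PRKCH) the call in Empty-V cells was a rise with no call in cluster cells, and MCC, which was dim, rose by 1.46 in Empty-V cells and fell by 0.88 in cluster cells (limma adjusted p = 0.00107 and 0.0363). PRKCH rose by 1.51 in Empty-V cells and had -0.52 in cluster cells (limma adjusted p = 0.202). No group of arrays was large enough to test a single array as an outlier.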

How the results depend on the processing

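No called change of a named probe set reversed in any alternative, which says little about robustness. Leaving out 1 array could not reverse such a change, since the GSI and DMSO arrays of called probe sets did not overlap. The block and the other refits of the same values leave the group means as they are, and the smallest called change was 0.58 in size. Of the 337 named, 25, none of them called, changed sign in at least 1 alternative. So did the medians of 5 lists, which were at most 0.14 in size. The median over all probe sets, 0.01, was -0.02 without dim probe sets, -0.00375 after quantile normalization and -0.025 after median centring. The 1601 calls became 825 in the fit with the set as replicate block (442 higher, 383 lower), 841 with only the 4 Empty-V arrays, 2551 with an intensity trend and robust fit (1205 higher, 1346 lower), 2599 at a threshold of 0.1 and 694 at an absolute log2 change of at least 1. They were 2358 without dim probe sets (1098 higher, 1260 lower), 1579 after quantile normalization (818 higher, 761 lower) and 1570 after median centring (701 higher, 869 lower), so that which direction had more calls depended on the setting, and ran between 514 (without Empty-V DMSO set 2) and 1310 when 1 array was left out. The 6 differences between vectors became 1 in the fit with the set as replicate block, 14 without dim probe sets (11 higher, 3 lower), 111 with the trend and robust fit (52 higher, 59 lower) and 21 at the threshold of 0.1, were 6 after quantile normalization or median centring, and ran between 0 and 2 without 1 array. Where a group kept 1 array, that array was assumed to vary like the other groups. Of the 217 called probe sets among the 337 named, the number that lost the call was 43 with the block, 44 with only the 4 Empty-V arrays, 3 with the trend and robust fit, 4 with median centring, 7 with quantile normalization and 95 in at least 1 fit without an array. The cause of these shifts was not tested beyond the smaller number of arrays or probe sets that some alternatives use.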
